A study of Mus musculus with 12 samples.

Results

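The acute phase genes described here are 10 liver genes whose products are secreted into blood: the serum amyloid A genes Saa1, Saa2 and Saa4, the orosomucoid genes Orm1 and Orm2, haptoglobin (Hp), hemopexin (Hpx), the pentraxins Crp and Apcs, and lipocalin 2 (Lcn2). They were found by gene symbol in the annotation of the array platform, and they are 10 of the 19938 genes that the annotation names alone on a transcript cluster, the array's unit of measurement for a gene. Each of the 10 had exactly 1 such cluster. The study hybridised liver RNA to 12 Affymetrix mouse Gene 1.0 ST arrays, 3 in each of 4 groups. The groups were hypothyroid L-NCoR∆ID mutants (replicates 5, 6 and 7), euthyroid L-NCoR∆ID mutants (replicates 2, 3 and 4), hypothyroid controls (replicates 17, 18 and 20) and euthyroid controls (replicates 13, 14 and 15). NCoR is the nuclear receptor corepressor, which binds the thyroid hormone receptor and other nuclear receptors and recruits histone deacetylase activity to their target genes. The L-NCoR∆ID allele is known as one that removes, in hepatocytes, the domains through which NCoR contacts those receptors. The labels used here give neither the Cre line, the genotype of the controls, the age or sex of the mice, nor how hypothyroidism was brought about. They do not state that the 3 samples of a group came from separate mice, so each p-value sets a difference against the spread between these samples, which may be technical.

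The acute phase response is the change in plasma protein synthesis by which the liver answers infection and injury. Interleukin 6, acting through the gp130 receptor and STAT3, and interleukin 1 and tumour necrosis factor, acting through NF-kB, raise the transcription of acute phase genes together with transcription factors of the C/EBP family. Outside inflammation most of these genes have a basal level in hepatocytes, and the members differ widely in how much of it they keep: haptoglobin and hemopexin are abundant plasma proteins at rest, while Saa1 and Saa2 are known for a low level at rest and a very strong induction.

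The promoters are shown because the 4 members that fell in hypothyroid liver belong to the serum amyloid A and orosomucoid families, which hold near copies of a gene. Sequences are from RefSeq on the assembly GRCm38.p6 and hold the 250 bases before the annotated start, in the direction of transcription. Of the 10 members, 8 had an entry. In Saa1 and Saa2 the capitals mark the bases that differ between them.
Saa1, chr7:46742981-46743230, minus strand: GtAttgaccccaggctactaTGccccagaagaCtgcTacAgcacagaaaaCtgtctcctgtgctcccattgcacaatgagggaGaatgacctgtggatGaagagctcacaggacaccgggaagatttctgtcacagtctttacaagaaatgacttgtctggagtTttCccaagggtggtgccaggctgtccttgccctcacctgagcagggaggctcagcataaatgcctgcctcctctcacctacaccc
Saa2, chr7:46751583-46751832, plus strand: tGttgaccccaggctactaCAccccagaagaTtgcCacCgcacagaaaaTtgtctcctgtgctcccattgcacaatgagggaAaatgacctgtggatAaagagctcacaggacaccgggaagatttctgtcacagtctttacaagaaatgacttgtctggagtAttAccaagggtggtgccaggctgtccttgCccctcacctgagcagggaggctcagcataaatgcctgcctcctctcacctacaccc
Over 251 aligned columns 238 were identical (94.8%), with 11 substitutions and 2 gap columns. In the next 3 windows the capitals mark matches to a C/EBP motif, searched on both strands as TTGCNNAA and its reverse complement TTNNGCAA. Saa4 is the constitutive gene of the same family on chromosome 7, and Orm3 is the orosomucoid gene beside Orm2 and no member.
Saa4, chr7:46732604-46732853, minus strand: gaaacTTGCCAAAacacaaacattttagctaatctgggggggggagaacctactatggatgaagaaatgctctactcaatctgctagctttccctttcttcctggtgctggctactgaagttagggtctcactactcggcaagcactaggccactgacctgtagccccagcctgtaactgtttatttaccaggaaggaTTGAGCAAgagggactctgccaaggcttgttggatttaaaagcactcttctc
Orm2, chr4:63362199-63362448, plus strand: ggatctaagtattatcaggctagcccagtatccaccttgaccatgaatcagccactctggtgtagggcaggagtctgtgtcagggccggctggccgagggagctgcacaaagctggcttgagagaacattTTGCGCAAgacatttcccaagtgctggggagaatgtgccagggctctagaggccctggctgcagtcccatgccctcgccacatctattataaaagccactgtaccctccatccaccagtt
Orm3, chr4:63355908-63356157, plus strand: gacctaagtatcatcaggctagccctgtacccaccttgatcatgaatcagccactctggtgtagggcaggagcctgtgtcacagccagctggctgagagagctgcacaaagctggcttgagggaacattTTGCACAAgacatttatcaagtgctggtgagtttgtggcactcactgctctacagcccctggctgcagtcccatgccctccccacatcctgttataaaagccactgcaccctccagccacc
Orm2 and Orm3 were 85.5% identical, whereas Saa1 and Saa4 were 46.3% identical. Probes of Saa1 and Saa2, and of Orm1, Orm2 and Orm3, may bind transcripts of the close copy, so the levels of single genes within each family are uncertain. The windows shown lie before the transcribed part, so their identity does not measure this, and no transcript or probe sequences were compared. In older annotations the names Saa1 and Saa2 were also exchanged, and the platform's use of them is kept here.

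The C/EBP letters occurred in the windows of 6 of the 8 members (Saa1, Saa2, Saa4, Orm2, Hpx and Lcn2), against 9.56% of the 32851 promoter windows of the same length. The thyroid hormone receptor half-site AGGTCA (reverse complement TGACCT) occurred in 4 of the 8 members (Saa1, Saa2, Saa4 and Hpx), against 14% of all windows. In Saa1 the C/EBP match lay 182 to 175 bases before the start and the half-site match 164 to 159 bases before it. Saa2 had the same letters at 183 to 176 and 165 to 160 bases, in a window 94.8% identical to that of Saa1. These 2 members are near copies and not separate occurrences in the counts. The STAT letters TTCNNNGAA, which are their own reverse complement, were found in the window of Apcs alone among the members, against 7.02% of all windows, and an NF-kB motif (GGGA and CC with any 4 bases between them, on either strand) was found in 0 of the 8, against 17.6%. None of these matches overlapped another. They describe letters in a window and show no binding.

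The arrays had similar medians, between 4.16 and 4.32 on the log2 scale, and the spread of log2 values within an array (its SD) differed between groups. The array SD ranged from 2.316 to 2.35 in hypothyroid mutants, from 2.259 to 2.307 in euthyroid mutants, from 2.288 to 2.296 in hypothyroid controls and from 2.219 to 2.285 in euthyroid controls. Hypothyroid mutant replicate 7 had the highest array SD (2.35) and euthyroid control replicate 14 the lowest (2.219). Both are called the outlying arrays, and counts are given with and without both. All 12 measured hepatocyte markers were above the array median on every array, and 13 of 14 neutrophil markers were below it on every array. No cluster of the annotation was named for the altered gene, so its own level was not analysed here.

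Hypothyroidism was accompanied by lower RNA of Saa1, Saa2, Saa4 and Orm2 with all 12 arrays, and only the averaged call of Saa2 held in every setting tried. Over 12 single omissions Saa4 lost its call in 5 and Orm2 in 8. Averaged over the genotypes, Saa2 was 2.11-fold lower, Saa1 1.85-fold lower, Orm2 1.83-fold lower and Saa4 1.43-fold lower in hypothyroid than in euthyroid liver, whereas Hp, Crp, Apcs, Orm1, Hpx and Lcn2 did not pass the test. The signal of Saa1 lay below the array median on every array and was not shown to stand above background, so the size of its fold and its place among the 4 are uncertain. The test was limma's moderated test on the log2 values, with Benjamini-Hochberg adjustment over all 21789 clusters with 1 gene symbol and a threshold of 0.05. It called 4 of the 10 members, all lower, where 6.04% of all clusters were called in either direction and 1.87% as lower. The members were chosen with earlier results of these data known, and Saa1 and Saa2 may share probes. The count is thus a description and the 4 are not separate observations. The median difference of the 10 members was -0.42, against -0.02 over all clusters, and 9 of 10 were lower, against 53.9% of all clusters. In bulk liver RNA, fewer cells of a type and less RNA per cell cannot be told apart.

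**Figure D1:**
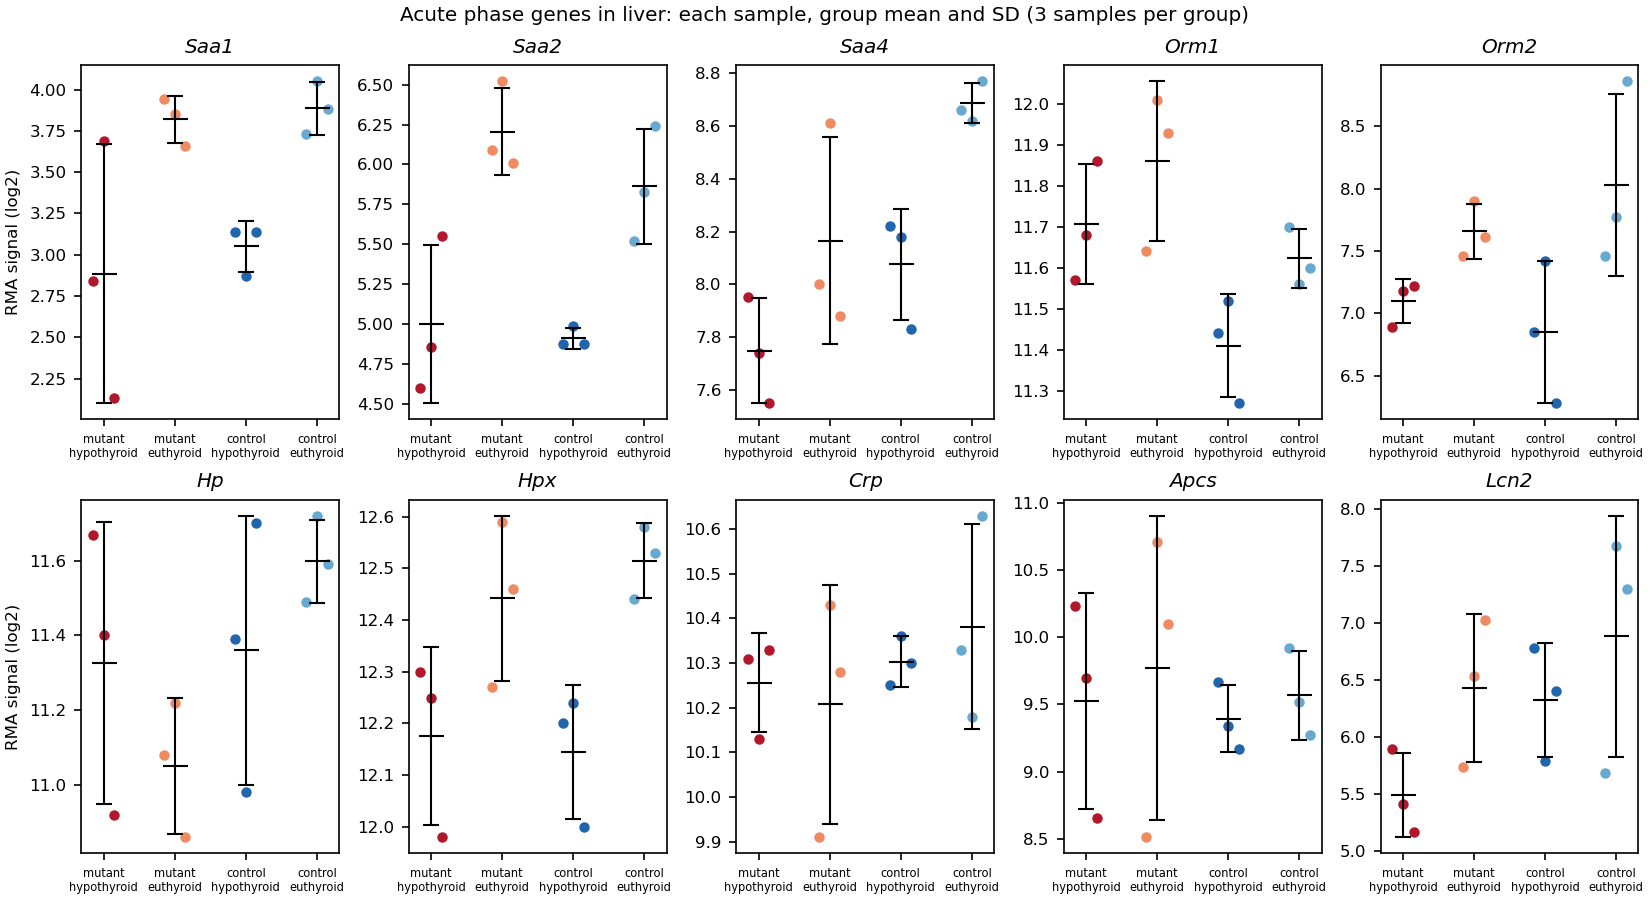
Log2 RMA signal of the 10 acute phase genes in each liver sample (points), with group mean and SD (bars, n = 3), in hypothyroid mutants, euthyroid mutants, hypothyroid controls and euthyroid controls from left to right. Each panel has its own vertical axis, which does not start at 0. All 6 hypothyroid samples of Orm2 lie at or below 7.42 and all 6 euthyroid samples at or above 7.46, while for Hp, Crp and Apcs the hypothyroid and euthyroid samples overlap within each genotype.

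Saa2 and Saa1 encode the acute phase apolipoproteins that travel on high-density lipoprotein. Saa2 had log2 signals of 4.60, 4.86 and 5.55 in hypothyroid mutants, against 6.09, 6.52 and 6.01 in euthyroid mutants. In controls its log2 signals were 4.88, 4.99 and 4.88 in hypothyroid livers, against 5.52, 5.83 and 6.24 in euthyroid livers. Within each genotype the 2 thyroid states did not overlap, and across genotypes 1 hypothyroid mutant (5.55) lay above the lowest euthyroid control (5.52). The difference averaged over genotypes was -1.08 ± 0.161 (SE, log2), with adjusted p = 0.00106. With all 12 arrays Saa2 was the only member called within a single genotype: in mutants it was 2.30-fold lower in hypothyroid than in euthyroid livers (log2 difference -1.20 ± 0.227, SE, adjusted p = 0.0172), and in controls it was 1.93-fold lower without passing the test (-0.95 ± 0.227, adjusted p = 0.0601). The call in mutants was lost without replicate 2, 3, 5 or 6 of the mutants, with adjusted p between 0.0509 and 0.0840. In controls Saa2 passed without euthyroid control replicate 13 (adjusted p = 0.0213), or hypothyroid mutant replicate 5 (0.0498) or 7 (0.0217).

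Saa1 had log2 signals of 2.84, 3.69 and 2.13 in hypothyroid mutants, against 3.94, 3.85 and 3.66 in euthyroid mutants. Its log2 signals in controls were 3.14, 2.87 and 3.14 in hypothyroid livers, against 3.73, 4.05 and 3.88 in euthyroid livers. Of the 6 hypothyroid samples 5 lay below every euthyroid sample, and the exception was mutant replicate 6 (3.69), which overlapped the lowest euthyroid mutant (3.66). The difference averaged over genotypes was -0.88 ± 0.191 (SE, log2), with adjusted p = 0.0138. Within a genotype it was -0.93 in mutants (adjusted p = 0.133) and -0.84 in controls (adjusted p = 0.176). Without hypothyroid mutant replicate 6, Saa1 was called in mutants (-1.34, adjusted p = 0.00703) and in controls (-0.84, adjusted p = 0.0418), and in mutants Saa2 was then not called. Saa1 lay below the array median on 12 of 12 arrays, so these differences were read near the low end of the signal range, whereas Saa2 lay above the median on all of them.

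Saa4, the serum amyloid A gene that is known to be expressed constitutively and to respond little to inflammation, fell with the other members of its family. It had log2 signals of 7.95, 7.74 and 7.55 in hypothyroid mutants, against 8.0, 8.61 and 7.88 in euthyroid mutants. In controls the log2 signals of Saa4 were 8.22, 8.18 and 7.83 in hypothyroid livers, against 8.66, 8.62 and 8.77 in euthyroid livers. The thyroid states did not overlap in controls, while in mutants the highest hypothyroid sample (7.95) was above the lowest euthyroid one (7.88). Averaged over genotypes the difference was -0.51 ± 0.128 (SE, log2), with adjusted p = 0.0302, and within mutants (-0.42, adjusted p = 0.287) or controls (-0.61, adjusted p = 0.134) it did not pass the test.

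Orm2 encodes orosomucoid 2, a form of alpha-1-acid glycoprotein, which binds basic and neutral small molecules in plasma. Its log2 signals were 6.89, 7.18 and 7.22 in hypothyroid mutants, against 7.46, 7.90 and 7.61 in euthyroid mutants. In controls they were 6.85, 7.42 and 6.28 in hypothyroid livers, against 7.46, 7.77 and 8.86 in euthyroid livers. No hypothyroid sample reached the lowest euthyroid sample of either genotype, and the controls were more spread (SD 0.569 in hypothyroid and 0.731 in euthyroid controls) than the mutants (SD 0.178 in hypothyroid and 0.224 in euthyroid mutants). Averaged over genotypes Orm2 differed by -0.87 ± 0.219 (SE, log2; adjusted p = 0.0312). The difference was -0.56 in mutants (adjusted p = 0.387) and -1.18 in controls (adjusted p = 0.0865). Over single omissions the difference in controls ranged from -1.465 to -0.768. Its adjusted p ranged from 0.0211, without euthyroid control replicate 13, to 0.309. The dependence of the thyroid difference of Orm2 on genotype did not pass the test (0.62 ± 0.437, SE, 95% interval -0.31 to 1.55, adjusted p = 1).

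Orm1, the other orosomucoid member, gave a small difference. It had log2 signals of 11.57, 11.68 and 11.86 in hypothyroid mutants, against 11.64, 12.01 and 11.93 in euthyroid mutants, and of 11.44, 11.52 and 11.27 in hypothyroid controls, against 11.70, 11.56 and 11.60 in euthyroid controls. The controls of the 2 thyroid states did not overlap and those of the mutants did. Its difference averaged over genotypes was -0.18 (95% interval -0.39 to 0.02, adjusted p = 0.247). The family genes that are no members, Saa3 and Orm3, had differences of -0.42 (adjusted p = 0.119) and -0.45 (adjusted p = 0.0629) and were not called.

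**Figure D2:**
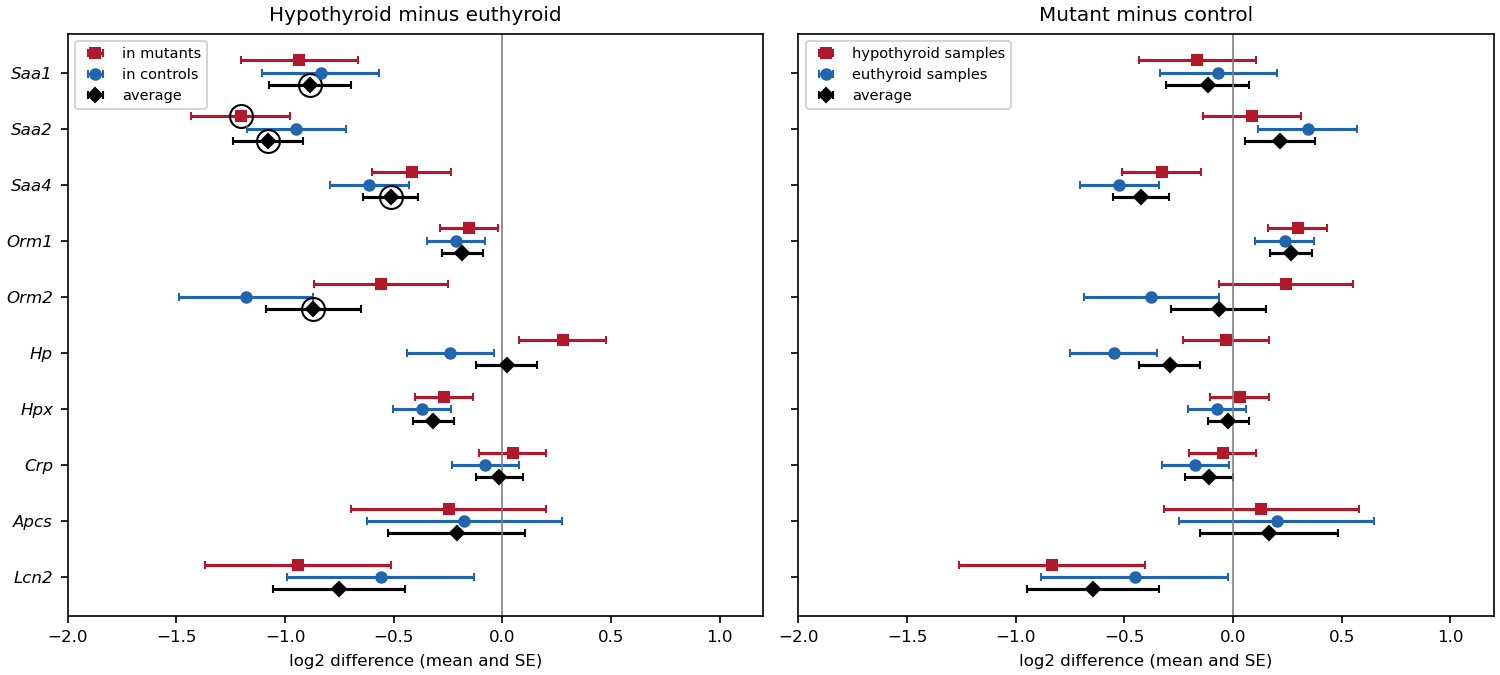
Log2 differences of the 10 members with standard errors: hypothyroid minus euthyroid (left) in mutants, in controls and averaged over genotypes, and mutant minus control (right) in hypothyroid samples, in euthyroid samples and averaged over thyroid states. Open circles mark an adjusted p under 0.05; they fall on the averages of Saa1, Saa2, Saa4 and Orm2 and on Saa2 in mutants, all to the left of 0, and on no mutant effect.

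Haptoglobin and hemopexin clear free haemoglobin and free haem from plasma. Hpx had log2 signals of 12.30, 12.25 and 11.98 in hypothyroid mutants, against 12.27, 12.59 and 12.46 in euthyroid mutants. In controls Hpx gave 12.20, 12.24 and 11.997 in hypothyroid livers, against 12.44, 12.58 and 12.53 in euthyroid livers. Of the 6 hypothyroid samples 5 lay below every euthyroid sample, and hypothyroid mutant replicate 5 (12.30) exceeded euthyroid mutant replicate 2 (12.27). The difference averaged over genotypes was small and fell short of the threshold (-0.32 ± 0.0947, SE, log2, adjusted p = 0.0592). It passed under quantile normalization (adjusted p = 0.0398), with clusters above the median level alone (0.0396), with a trended and robust variance model (0.0253) and without euthyroid control replicate 13 (0.0344). It did not pass with median centring (adjusted p = 0.0988), all clusters (0.0939), the array SD as covariate (0.600), without both outlying arrays (0.202), or in the other 11 single omissions (0.0634 to 0.156).

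Hp had log2 signals of 11.67, 11.40 and 10.92 in hypothyroid mutants, against 11.08, 11.22 and 10.86 in euthyroid mutants. In controls Hp gave 11.39, 10.98 and 11.70 in hypothyroid livers, against 11.49, 11.72 and 11.59 in euthyroid livers. The groups overlapped in both genotypes. The difference averaged over genotypes was 0.02 (95% interval -0.28 to 0.32, adjusted p = 0.946), with 0.28 in mutants (adjusted p = 0.499) and -0.24 in controls (adjusted p = 0.641). The test of dependence on genotype gave 0.52 (95% interval -0.08 to 1.12) with an unadjusted p of 0.0868 and an adjusted p of 1.

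The pentraxins Crp and Apcs encode C-reactive protein and serum amyloid P component; in the mouse the second is known as the main acute phase pentraxin. Crp lay between 10.13 and 10.33 in hypothyroid mutants, between 9.91 and 10.43 in euthyroid mutants, between 10.25 and 10.36 in hypothyroid controls and between 10.18 and 10.63 in euthyroid controls. Its difference averaged over genotypes was -0.01 (95% interval -0.25 to 0.22, adjusted p = 0.946). Apcs was among the most variable genes of the arrays between samples of 1 group, with a residual SD of 0.727 on the log2 scale, at the 99.7th percentile of all clusters. It had log2 signals of 10.23, 9.70 and 8.65 in hypothyroid mutants, against 8.51, 10.71 and 10.10 in euthyroid mutants, and of 9.67, 9.34 and 9.17 in hypothyroid controls, against 9.92, 9.52 and 9.27 in euthyroid controls. All groups overlapped, and the difference averaged over genotypes was -0.21 with a wide 95% interval of -0.89 to 0.47 (adjusted p = 0.709).

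Lcn2 encodes a siderophore-binding protein that keeps iron from bacteria and is also made by neutrophils. It had log2 signals of 5.89, 5.41 and 5.17 in hypothyroid mutants, against 5.74, 6.53 and 7.02 in euthyroid mutants. In controls Lcn2 gave 6.78, 5.79 and 6.40 in hypothyroid livers, against 5.68, 7.67 and 7.30 in euthyroid livers. Euthyroid control replicate 13 (5.68) lay below all 3 hypothyroid controls, and the other 2 euthyroid controls lay above them. The difference averaged over genotypes was -0.75 (95% interval -1.40 to -0.10, adjusted p = 0.144), and without that replicate it was -1.05 with adjusted p = 0.00805. In the other 11 single omissions Lcn2 was not called, and with the array SD as covariate its difference changed sign to 0.088 (adjusted p = 0.970). The summed linear signal of 14 neutrophil markers ranged from 129.4 to 136.2 in hypothyroid mutants, from 140.8 to 147.3 in euthyroid mutants, from 137.8 to 145.5 in hypothyroid controls and from 138.3 to 166.9 in euthyroid controls. Averaged over genotypes 0 of the 14 were called, where 6.04% of all clusters were called in either direction.

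Set within a single genotype, the thyroid comparison called few members. In mutants 1 of 10 members was called (Saa2), where 1.11% of all clusters were called in either direction and 0.454% as lower. In controls 0 of 10 members were called by limma, where likewise 1.11% of all clusters were; 5 members had an unadjusted p under 0.05 and the smallest adjusted p was 0.0601. The median difference of the members was -0.34 in mutants, with 8 of 10 lower, and -0.47 in controls, with 10 of 10 lower. No member's thyroid effect depended on genotype by the test of that difference: 0 of 10 members and 0% of the 21789 clusters were called, and 0 members had an unadjusted p under 0.05.

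The averaged calls differed in how much they rested on single samples. Saa2 was called when any of the 12 arrays was left out, with adjusted p between 0.000201 and 0.00444, and so was Saa1, with adjusted p between 0.000403 and 0.0413. Saa4 was lost without hypothyroid mutant replicate 6 (adjusted p = 0.0599) or 7 (0.0857), hypothyroid control replicate 18 (0.0505) or 20 (0.0794), or euthyroid control replicate 15 (0.0641). Orm2 was lost in 8 of the 12 omissions: hypothyroid mutant replicate 5, 6 or 7, euthyroid mutant replicate 2, 3 or 4, and hypothyroid control replicate 17 or 20, with adjusted p between 0.0514 and 0.0787. Without hypothyroid mutant replicate 7 and euthyroid control replicate 14 together, Saa2 and Saa1 were called and Saa4 (adjusted p = 0.0979) and Orm2 (0.0592) were not.

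The array SD moved with thyroid state, being higher in each hypothyroid group on average than in the euthyroid group of its genotype (2.336 against 2.281 in mutants and 2.293 against 2.256 in controls). Within each genotype every hypothyroid array had a higher SD than every euthyroid one. The lowest hypothyroid SD was 2.316 against a highest euthyroid SD of 2.307 in mutants, and 2.288 against 2.285 in controls. A fit with this covariate therefore cannot fully separate thyroid state from array SD. With the array SD as a covariate, Saa2 alone of the 10 members was called (adjusted p = 0.0211), and Saa1 (0.378), Saa4 (0.193) and Orm2 (0.299) were not. Over the alternatives other than single omissions, this fit among them, the averaged difference of these 3 stayed negative. It ranged from -0.67 to -0.47 for Saa4, from -1 to -0.83 for Orm2 and from -0.88 to -0.65 for Saa1. With all 35557 clusters of the table in the test, Saa2 was again the only member called (adjusted p = 0.0098), and Saa1 had an adjusted p of 0.0530.

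**Figure D3:**
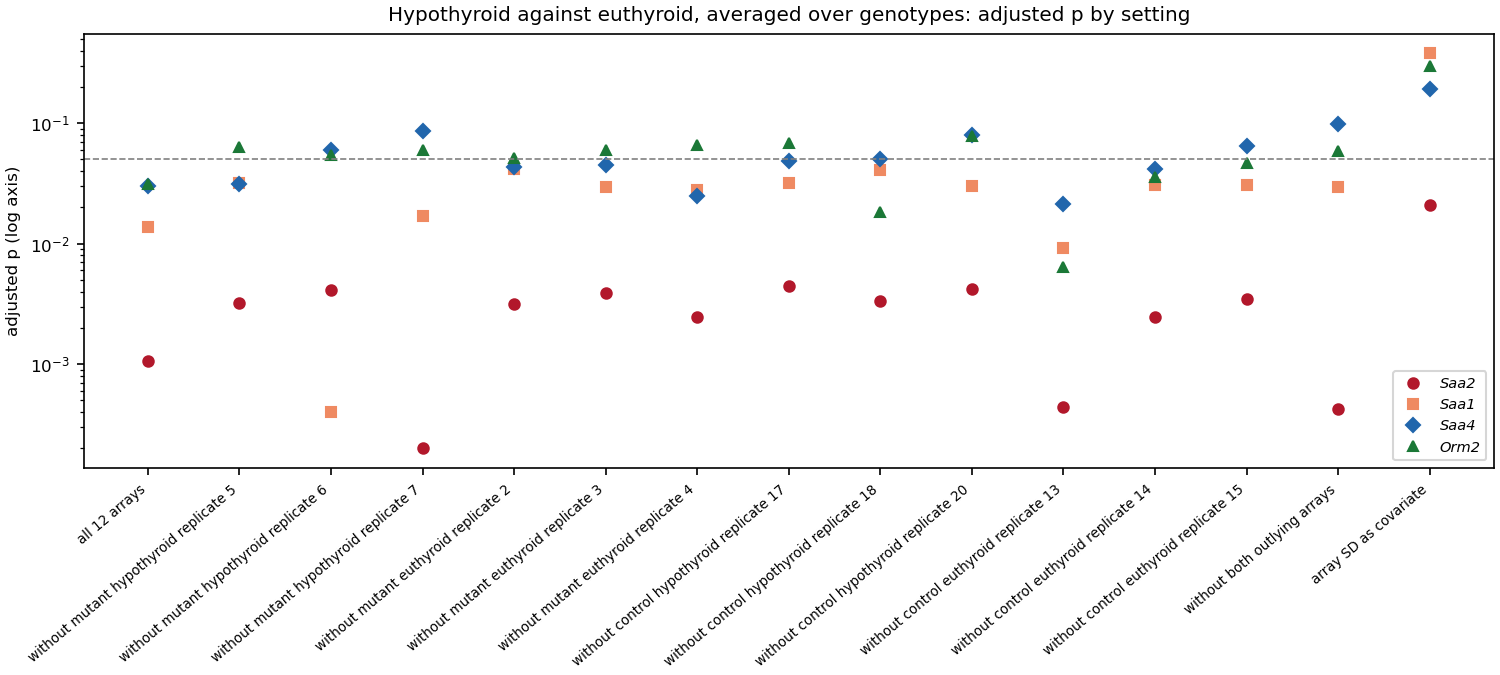
Adjusted p (log axis) of Saa2, Saa1, Saa4 and Orm2 for hypothyroid against euthyroid liver averaged over genotypes, with all 12 arrays, without each array in turn, without both outlying arrays (hypothyroid mutant replicate 7 and euthyroid control replicate 14) and with the array SD as a covariate. The dashed line is the threshold of 0.05. Saa2 lies below it in every setting drawn, and Saa1 in all but the covariate fit (0.378).

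The other genes of the response, described from lists of related genes, went both ways. Of 28 other positive acute phase genes 24 were measured, 4 fell and 1 rose in hypothyroid liver averaged over genotypes, and the median difference was -0.03, against -0.02 over all clusters. Of all clusters 6.04% were called in either direction and 1.87% as lower. Those that fell were Fgl1, a fibrinogen-like protein secreted by hepatocytes (-0.79, adjusted p = 0.0121), the complement gene C4b (-0.51, adjusted p = 0.00957), the mannose-binding lectin gene Mbl1 (-0.50, adjusted p = 0.0251) and Itih4 (-0.35, adjusted p = 0.0219), which was named after its value was seen. The zinc importer gene Slc39a14 rose (0.45, adjusted p = 0.0269). Over the 12 omissions of 1 array, Fgl1 and C4b lost the call in 0, Itih4 in 4 (adjusted p up to 0.0578), Slc39a14 in 5 (up to 0.0769) and Mbl1 in 6 (up to 0.0693). In the fit with the array SD as covariate only Mbl1 of these 5 was called (adjusted p = 0.0165), and Fgl1 (0.0834), C4b (0.266), Itih4 (0.181) and Slc39a14 (0.425) were not. The metallothioneins Mt1 (0.75, adjusted p = 0.280) and Mt2 (1.32, adjusted p = 0.196) were higher without passing the test, and are named after their values were seen.

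Genes that inflammation is known to lower also went both ways. Of 17 such negative acute phase genes 16 were measured and 3 were called in hypothyroid liver, where 6.04% of all clusters were called in either direction. Igf1, the growth factor that the liver secretes under growth hormone, fell (-0.49, adjusted p = 0.0220), as did Itih1 (-0.32, adjusted p = 0.0371). Ttr, which encodes the thyroid hormone carrier transthyretin, rose (0.32, adjusted p = 0.0259). Their list had a median difference of 0.01. The call was lost in 4 of 12 single omissions for Igf1 (adjusted p up to 0.0622), in 10 for Itih1 (up to 0.0838) and in 7 for Ttr (up to 0.0664). None of the 3 was called by limma with the array SD as covariate (adjusted p = 0.0836 for Igf1, 0.197 for Itih1 and 0.299 for Ttr).

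In each of the signalling lists 2 genes passed the test, where 6.04% of all clusters were called in either direction. The receptor gene Lifr had the lowest difference in these lists. Lifr, the receptor for leukaemia inhibitory factor that pairs with gp130, had log2 signals of 8.26 to 8.95 in hypothyroid mutants against 10.24 to 10.92 in euthyroid mutants, and of 7.999 to 8.16 in hypothyroid controls against 9.43 to 10.52 in euthyroid controls. The thyroid states of Lifr did not overlap in either genotype, and the difference averaged over genotypes was -1.88 ± 0.182 (SE, adjusted p = 2.18e-05). Of the 15 measured genes of interleukin 6 and gp130 signalling, Lifr and Bcl3, an atypical NF-kB inhibitor family member (-0.78, adjusted p = 0.00698), fell and 0 rose. Among 17 measured genes of interleukin 1, tumour necrosis factor and NF-kB signalling, 0 fell and 2 rose: Il1rap, the interleukin 1 receptor accessory protein (0.87, adjusted p = 0.00264), and Tnfrsf1a, a tumour necrosis factor receptor (0.46, adjusted p = 0.0275). Tnfrsf1a lost its call in 6 of 12 single omissions (adjusted p up to 0.0717), and Lifr, Bcl3 and Il1rap in 0. With the array SD as covariate Lifr was called (-2.22, adjusted p = 0.00107), whereas Bcl3 (-0.63, adjusted p = 0.343), Il1rap (0.33, adjusted p = 0.444) and Tnfrsf1a (0.62, adjusted p = 0.141) were not.

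Of 13 measured hepatocyte transcription factor genes, Onecut1 fell (-0.90, adjusted p = 0.00337) and the other 12 were not called. Of all clusters 6.04% were called in either direction. None of 15 measured cytokine and chemokine genes was called by limma, and the largest differences were -0.31 for Tnf (adjusted p = 0.0949) and 0.24 for Il1b (adjusted p = 0.559). In the haem and iron list 9 of 12 genes were measured, 5 with a positive and 4 with a negative difference. Of the 9, 4 were called higher and 0 lower, where 6.04% of all clusters were called in either direction. Those called were the biliverdin reductase gene Blvrb (0.99, adjusted p = 0.000234), the transferrin receptor gene Tfrc (0.71, adjusted p = 0.0133) and the ferritin genes Fth1 (0.39, adjusted p = 0.0116) and Ftl1 (0.38, adjusted p = 0.0125). Blvrb was also called with the array SD as covariate (adjusted p = 0.0135), whereas Tfrc (0.31, adjusted p = 0.667), Fth1 (0.38, adjusted p = 0.245), Ftl1 (0.41, adjusted p = 0.210) and Onecut1 (-1.10, adjusted p = 0.0507) were not.

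**Figure D4:**
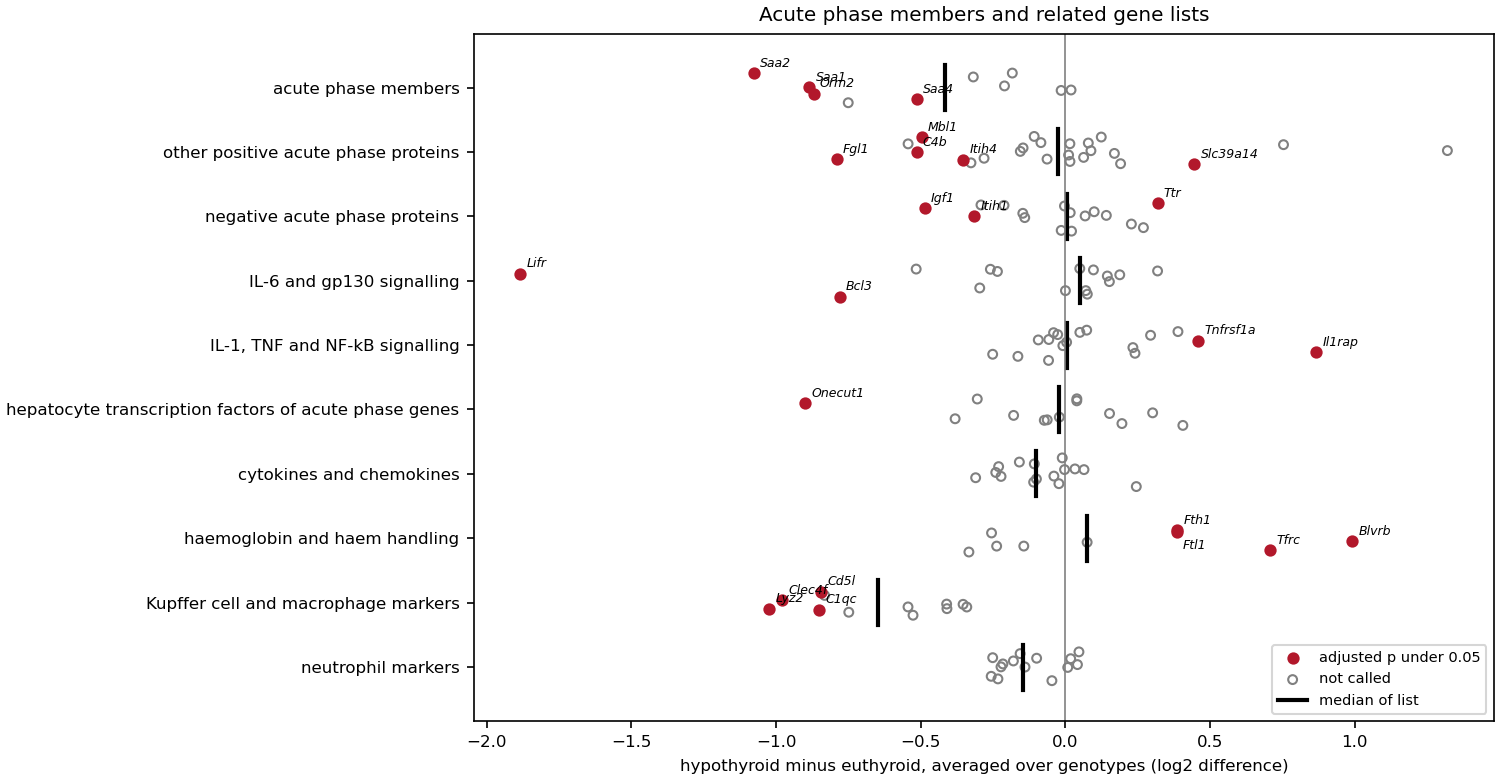
Log2 difference, hypothyroid minus euthyroid averaged over genotypes, of each measured gene (points) in the 10 acute phase members and 9 related lists. Filled points have an adjusted p under 0.05 and vertical bars are list medians. The members' median is -0.42 and that of the other positive acute phase genes -0.03, and Lifr lies farthest to the left at -1.88.

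Markers of Kupffer cells and other macrophages, the resident source of inflammatory cytokines in liver, were lower in hypothyroid liver, as were the 4 members called. All 12 measured markers had a negative difference averaged over genotypes (median -0.65), against 53.9% of all clusters (median -0.02). Of the 12, 4 fell, where 1.87% of all clusters were called as lower: Lyz2 (-1.02, adjusted p = 0.0402), Clec4f (-0.98, adjusted p = 0.00359), C1qc (-0.85, adjusted p = 0.0296) and Cd5l (-0.85, adjusted p = 0.0237). The summed linear signal of the 12 markers ranged from 559.9 to 1057 in hypothyroid mutants, from 1021 to 2383 in euthyroid mutants, from 551 to 613.3 in hypothyroid controls and from 814.6 to 919.3 in euthyroid controls. None of these markers was below the array median on every array. Clec4f kept its call in all 12 single omissions, and the call was lost in 4 for Cd5l (adjusted p up to 0.0669), in 7 for C1qc (up to 0.0748) and in 7 for Lyz2 (up to 0.0928). C1qc was not called with the array SD as covariate (adjusted p = 0.181), and without both outlying arrays Lyz2 (0.127), C1qc (0.133) and Cd5l (0.0825) were not. The markers' part in the differences of Saa1, Saa2, Saa4 and Orm2 was not tested.

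The mutation of NCoR gave no call among the acute phase genes. In hypothyroid mice 0 of 10 members were called between mutants and controls, where 0.262% of all clusters were called, and in euthyroid mice 0 of 10 were called, where 0.129% were. Averaged over thyroid states 0 of 10 were called, where 1.14% of all clusters were. By limma, 1, 2 and 2 members had an unadjusted p under 0.05 in these 3 comparisons, and the smallest adjusted p-values were 0.467, 0.516 and 0.130. The members' median difference averaged over thyroid states was -0.09, against -0.01 over all clusters.

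The largest mutant difference was that of Lcn2, at -0.64 averaged over thyroid states (95% interval -1.29 to 0.0039, adjusted p = 0.303). Of the 3 hypothyroid mutants 2 lay below every hypothyroid control, the other (5.89) lay above the lowest of them (5.79), and the euthyroid groups overlapped. Without euthyroid control replicate 13 the difference of Lcn2 was -0.94 and passed the test (adjusted p = 0.0219). With the array SD as covariate it was -0.019 averaged (adjusted p = 0.997), and -0.034 in hypothyroid samples against -0.83 without the covariate. Saa4 differed by -0.42 ± 0.128 (SE, adjusted p = 0.130), and by -0.54 with adjusted p = 0.0347 without euthyroid mutant replicate 3, whose log2 signal of 8.61 stood above the 8.0 and 7.88 of the other euthyroid mutants.

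Orm1 was higher in mutants in both thyroid states without passing the test, by 0.30 in hypothyroid and 0.24 in euthyroid samples, and by 0.27 averaged over them (95% interval 0.06 to 0.47, adjusted p = 0.185). In hypothyroid livers the lowest mutant (11.57) was above the highest control (11.52), while in euthyroid livers the groups overlapped. Hp differed by -0.55 in euthyroid mice (95% interval -0.97 to -0.12, adjusted p = 0.548), where all 3 mutants lay below all 3 controls, and by -0.03 in hypothyroid mice (95% interval -0.46 to 0.39, adjusted p = 0.964). For the members lower in hypothyroid liver, the mutant differences averaged over thyroid states were 0.22 for Saa2 (95% interval -0.13 to 0.56), -0.12 for Saa1 (-0.52 to 0.29) and -0.06 for Orm2 (-0.53 to 0.40). The intervals of Hpx (-0.22 to 0.18), Crp (-0.34 to 0.12) and Apcs (-0.51 to 0.84) also held 0, and a p above the threshold does not show that the genotypes are alike.

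In the related lists, 0 of 24 other positive and 0 of 16 negative acute phase genes were called between mutants and controls averaged over thyroid states, where 1.14% of all clusters were. Tfrc of the haem and iron list was higher in mutants (0.69, adjusted p = 0.0408), as was the macrophage marker Adgre1 (0.66, adjusted p = 0.0427). These calls were lost in 11 of 12 single omissions for Tfrc (adjusted p 0.0562 to 0.126) and in 9 for Adgre1 (0.0570 to 0.120), and with the array SD as covariate for both (adjusted p = 0.578 each). All 12 macrophage markers had a positive mutant difference, with a median of 0.51, whereas 3 of the 10 members (Saa2, Orm1 and Apcs) had a positive one.

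The members varied together in part, and only some of their pairs are named here. Across the 12 arrays Saa2 and Orm2 had a Pearson correlation of 0.77, and 0.63 after group means were removed. Saa4 and Hpx had 0.79 and 0.75 on the same terms, and Orm1 and Hp had -0.59 and -0.65. Hpx and Apcs had 0.57 and 0.79, whereas Orm2 and Apcs had 0.08 and -0.04. Saa1 and Saa2, whose promoters differ at few bases, had 0.56 across the arrays and -0.42 after group means were removed. These are descriptions over 12 arrays that share their normalization.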

How the data were processed

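The authors deposited log2 signals per transcript cluster, made with RMA per the submitters' processing notes; no version, options or genome build were named in the sources used here. Per the labels' protocols, 200 ng of total RNA per sample was hybridised to mouse Gene 1.0 ST arrays. Of 35557 clusters, 21789 had exactly 1 gene symbol in the platform annotation and were tested without a filter on level; 1621 had several symbols and 12147 none. Groups were taken from the sample titles, which give no batch. All 12 arrays entered a linear model of 4 groups in limma 3.58.1 and R 4.3.3 (residual degrees of freedom 8), with p-values adjusted within each comparison by Benjamini-Hochberg, threshold 0.05. The model was tested on simulated data. Precision is limited by the number of arrays.

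The members, gene lists, tests and alternatives were chosen with earlier results of these data known. Named genes were all 10 members, up to 4 called genes per list with the largest difference (2 as values where none was called in a list described), and the genes most correlated with the members. Alternatives were quantile normalization, median centring, clusters above the median level, all clusters, the array SD as a covariate, the compared groups alone, omission of arrays, and a trended robust variance model; the same alternatives for genes of the lists were added after seeing the data. Promoters came from RefSeq (GRCm38.p6) and were searched for 4 motifs.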

Additional observations from a re-analysis of the deposited data

Results flagged for a closer look

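In Orm2, every hypothyroid mutant lay above the mean of the hypothyroid controls and every euthyroid mutant lay below the mean of the euthyroid controls, which was the pattern in no other member. The mutant minus control difference was 0.25 on the log2 scale in hypothyroid samples and -0.38 in euthyroid samples. The difference between them was 0.62, and its limma test did not pass (unadjusted p = 0.176, adjusted p = 1). Groups of 3 were not searched for outlying samples.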

How the results depend on the processing

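No paired analysis was possible because the groups share no replicate numbers. Depth is not given by arrays; Saa1 alone of the members lay below the array median, and it was not tested among clusters above the median level. Lifr, Blvrb and Clec4f kept their calls in all 19 settings tried, and the other named genes of the lists lost theirs, in the thyroid comparison, in 1 to 14. The counts of members called in hypothyroid against euthyroid liver averaged over genotypes were 1 with all clusters, 1 with the array SD as covariate, 2 without both outlying arrays, and 2 to 6 over single omissions, against 4. In controls the count was 1, against 0, under quantile normalization, with clusters above the median level, without both outlying arrays, with the trended robust model and with the compared groups alone, and 0 to 2 over omissions. In mutants it was 0, against 1, with all clusters or the covariate, and 0 to 1 over omissions; without hypothyroid mutant replicate 6 the 1 was Saa1 in place of Saa2. For mutants against controls averaged over thyroid states it was 0 to 1 over omissions, against 0.

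Counts of all clusters called moved more. For hypothyroid against euthyroid liver averaged over genotypes, 1317 became 872 with all clusters, 181 with the covariate, 730 without both outlying arrays and 680 to 3579 over omissions. In controls 242 became 144 with all clusters, 137 with the covariate, 135 with the compared groups alone and 134 to 864 over omissions. In mutants 241 became 146 with all clusters, 36 with the covariate and 89 to 620 over omissions. For mutants against controls averaged, 248 became 95 with all clusters, 41 with the covariate, 140 without both outlying arrays and 107 to 1866 over omissions. In hypothyroid samples 57 became 33 with all clusters, 9 with the covariate, 174 with the compared groups alone and 21 to 133 over omissions. In euthyroid samples 28 became 45 under quantile normalization, 10 with all clusters, 14 without both outlying arrays and 6 to 192 over omissions. The interaction gave 0, and 0 to 1 over omissions. Without euthyroid control replicate 13 the count rose to 3579 for the thyroid average and 1866 for the mutant average. It also rose to 864 in controls, 133 in hypothyroid samples and 192 in euthyroid samples. The 620 in mutants came without euthyroid control replicate 14. The setting with all clusters has more tests and the omissions have fewer samples, and the causes of the changes in count were not tested.

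No called difference of a member changed sign, whereas uncalled differences did. They included differences near 0 and also the thyroid difference of Lcn2. With all 12 arrays that of Lcn2 was -0.94 in mutants, -0.56 in controls and -0.75 averaged over genotypes. With the array SD as covariate the mutant difference became -0.14 for Saa2 and 0.056 for Hp in hypothyroid samples and 0.023 for Hpx averaged, and the thyroid difference became 0.10 in controls, 0.073 in mutants and 0.088 averaged for Lcn2, and -0.12 in mutants for Crp. Under median centring the mutant difference became 0.032 for Hp and 0.018 for Crp in hypothyroid samples and 0.031 for Hpx averaged, and the thyroid difference of Crp averaged became 0.027. Under quantile normalization the mutant difference of Hpx in hypothyroid samples became -0.0075, the thyroid difference of Crp in mutants -0.11, that of Hp averaged -0.044, and the interaction of Orm1 -0.018. Without both outlying arrays the mutant difference of Saa1 became 0.21 in hypothyroid samples, 0.013 in euthyroid samples and 0.11 averaged, that of Saa2 -0.19 and Hp 0.17 in hypothyroid samples and Hpx 0.044 averaged. The thyroid difference of Apcs in mutants then became 0.19, and the interactions of Saa1 and Apcs 0.20 and 0.39.

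Over single omissions, the thyroid difference averaged ranged from -0.53 to 0.023 for Apcs, -0.089 to 0.048 for Crp and -0.066 to 0.12 for Hp. In controls it ranged from -0.33 to 0.0018 for Apcs and -0.18 to 0.048 for Crp, and in mutants from -0.88 to 0.22 for Apcs and -0.10 to 0.16 for Crp. The mutant difference averaged ranged from -0.068 to 0.48 for Apcs, -0.059 to 0.028 for Hpx, -0.21 to 0.14 for Orm2 and -0.32 to 0.073 for Saa1. In hypothyroid samples it ranged from -0.22 to 0.57 for Apcs, -0.086 to 0.016 for Crp, -0.22 to 0.17 for Hp, -0.044 to 0.13 for Hpx, -0.039 to 0.53 for Orm2, -0.57 to 0.21 for Saa1 and -0.19 to 0.29 for Saa2. In euthyroid samples it ranged from -0.27 to 0.83 for Apcs, -0.15 to 0.011 for Hpx, -0.66 to 0.037 for Orm2 and -0.15 to 0.013 for Saa1. The interaction ranged from -0.70 to 0.40 for Apcs, -0.021 to 0.24 for Crp, -0.77 to 0.22 for Lcn2, -0.050 to 0.13 for Orm1 and -0.50 to 0.28 for Saa1.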

Other observations

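The clusters with log2 values most like the mean of the 10 members over the 12 arrays, among 10885 clusters above the median level, were those of Acy3 (Pearson r = 0.95), Irf5 (0.94), Igfals (0.92), Hdhd3 (0.91) and Pcolce (0.90). Since they were chosen for following the members' mean, which was lower in hypothyroid liver, their own differences between thyroid states restate the choice and are given as values alone: -0.72 for Acy3, -1.01 for Irf5, -0.89 for Igfals, -0.65 for Hdhd3 and -0.55 for Pcolce (log2, hypothyroid minus euthyroid, averaged over genotypes). Irf5 encodes an interferon regulatory factor of macrophages, and Igfals the liver-made subunit that holds Igf1 in its circulating complex.

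The clusters most like Saa2 were Slc6a12 (r = 0.96), Fads2 (0.92), a fatty acid desaturase, and Lipg (0.90), the endothelial lipase, which acts on high-density lipoprotein. Those most like Orm2 were Arhgef40 (0.92), Stoml1 (0.91) and Ece1 (0.91), and those most like Lcn2 were H1f1 (0.92), Peg12 (0.91) and Frs3 (0.90). The correlations were picked as the highest of all clusters searched and are given as descriptions over 12 arrays.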
